A study of Mus musculus with 7 samples.

Results

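The genes described here are 34 genes of integrin signalling and focal adhesion: 11 receptors, 8 regulators of integrin activation, 6 genes of the complex of integrin-linked kinase (ILK) and 9 scaffolds and kinases. Each was taken from the deposited table by its gene symbol, and all 34 were found among the 23420 genes there. RNA was sequenced from microglia sorted as CD11b+ CD45low CX3CR1+ cells from mouse cortex at postnatal day 30. The cKO group (4 libraries) came from MG-Srgap2f/f mice, which carry floxed Srgap2 and the inducible Tmem119creErt2 recombinase, so that the deletion depends on the activity of Tmem119 in each cell. The WT group (3 libraries) came from Srgap2f/f littermates without the recombinase, and mice of both groups received 75 ug per g of tamoxifen at postnatal days 8 and 10. Each library came from 1 numbered mouse, and only the cKO mice carried the recombinase, so an effect of the recombinase and an effect of the deletion cannot be told apart. Srgap2 encodes a membrane-bending protein, and the series asks how microglia without it differ at rest.

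Integrins are cell surface receptors, each a pair of an alpha and a beta chain, that bind the extracellular matrix and other cells and connect them to the actin cytoskeleton. Talin and kindlin bind the beta tail and switch the receptor on, the small GTPase Rap1 brings talin to the membrane, and the complex of ILK, PINCH and parvin joins the tail to actin. Paxillin, focal adhesion kinases and Src-family kinases then pass the signal on. In microglia, the macrophages that live in brain tissue, these proteins are known for their part in process movement and in contact with matrix and synapses.

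Total counts ranged from 27016173 to 35707304 per library. Levels are given as CPM, counts brought to a common library size with TMM scaling factors, in the order of the replicate numbers. The targeted gene Srgap2 was at 344, 257, 275 and 212 CPM in the cKO mice, against 979, 691 and 693 CPM in the WT mice, so each library was on the side of its label. Tmem119, whose promoter drives the recombinase, averaged 3707 ± 716 CPM in cKO (SD, n = 4) against 6557 ± 571 CPM in WT mice (SD, n = 3) and fell (log2 fold change −0.82, SE 0.15, edgeR adjusted p = 0.046). All 14 microglial markers, Tmem119 among them, were detected. Their summed level was 56093 to 65778 CPM in cKO and 66290 to 69149 CPM in WT. Of the 14, 5 had a log2 fold change above 0 and 9 below 0, and Tmem119 alone passed an adjusted p of 0.05. Of the 9 endothelial and mural markers, 5 had 0 counts in every library, while Pecam1 made up most of a summed level of 53.0 to 72.4 CPM in cKO and 67.4 to 75.9 CPM in WT. The largest sums of other cell types were those of oligodendrocyte markers, at 224 to 331 CPM in cKO and 226 to 256 CPM in WT, and of astrocyte markers, at 88.1 to 140.3 CPM in cKO and 134 to 139.8 CPM in WT. Summed levels were 68.7 to 132 CPM in cKO and 73.4 to 112 CPM in WT for the 8 markers of border-associated macrophages, and 8.19 to 10.2 CPM in cKO and 5.92 to 10.5 CPM in WT for the 10 of monocytes and neutrophils found in the table. In sorted bulk cells, fewer cells of a type and less RNA per cell cannot be told apart.

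Rsu1 was the member whose level changed between the genotypes. It encodes Ras suppressor 1, a leucine-rich repeat protein that binds PINCH and so sits in the ILK complex at adhesion sites. It stood at 109, 116, 105 and 115 CPM in the cKO mice, against 68.6, 57.3 and 72.5 CPM in the WT mice. The cKO libraries lay close together and every one was above every WT library. Rsu1 averaged 111 ± 5.27 CPM in cKO (SD, n = 4) and 66.1 ± 7.90 CPM in WT mice (SD, n = 3), a 1.68-fold rise (log2 fold change 0.75, SE 0.11, edgeR quasi-likelihood adjusted p = 0.025).

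Of the 34 members, 31 had enough counts to be tested, and 1 of these rose, 0 fell and 30 did not pass. The threshold was an adjusted p of 0.05 over 11991 genes, of which 0.359% passed, 0.317% as higher and 0.0417% as lower in cKO. At an unadjusted p under 0.05, 7 members were higher and 1 was lower, against 9.65% and 6.87% of all genes tested. The log2 fold change was above 0 for 24 of the 31 members and for 48.1% of all genes, with a median of 0.20 over the members and −0.01 over all genes. By role the median was 0.20 over the 11 receptors (7 above 0), 0.28 over the 7 tested regulators of activation (6 above 0), 0.33 over the 5 tested genes of the ILK complex (5 above 0) and 0.11 over the 8 tested scaffolds and kinases (6 above 0). In 5 members (Rsu1, Fyn, Rap1b, Itgb1 and Itga9) every cKO library was above every WT library, which held for 8.86% of all genes, and in 0 members was every cKO library below, which held for 7.2%. The members were chosen with earlier results of these data known, so these counts describe them and are not a test of the set.

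**Figure D1:**
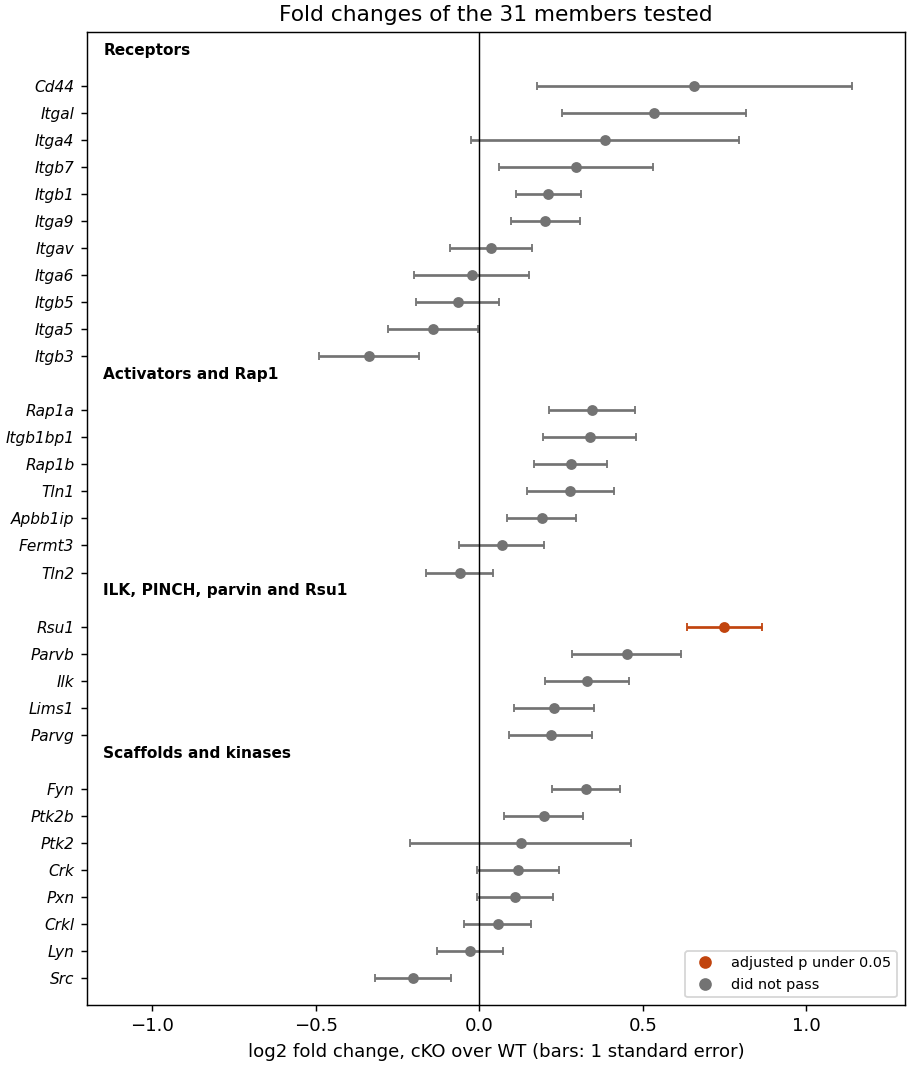
Log2 fold change of each of the 31 members tested, cKO (4 libraries) over WT (3 libraries), on the horizontal axis, with bars of 1 standard error, grouped by role. Rsu1, at 0.75, is the single point past an adjusted p of 0.05, and the other points lie between −0.34 and 0.66.

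The start of Rsu1 is shown because it is the member that passed. The 250 bases before the RefSeq start lie at chr2:13271416-13271665 of GRCm38.p6, on the minus strand; the counts were made on GRCm39, a different build, and these coordinates are used with the RefSeq table alone. Capitals mark the GC box (GGGCGG, either strand), which binds Sp1-type factors.
Rsu1: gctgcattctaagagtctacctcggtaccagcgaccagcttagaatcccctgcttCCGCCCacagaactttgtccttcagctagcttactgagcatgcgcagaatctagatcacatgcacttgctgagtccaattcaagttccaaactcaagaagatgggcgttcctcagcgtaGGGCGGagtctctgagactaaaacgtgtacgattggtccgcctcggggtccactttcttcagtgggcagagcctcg
The window has a GC content of 52.8% and holds the GC box on both strands at separate places. It does not hold the letters of the CArG box bound by the serum response factor, GAGGAAGT (a PU.1 core) or TATAAA on either strand. Of 29 windows of this length found for 24 of the members, 16 held GGGCGG, 1 the CArG box, 2 GAGGAAGT and 1 TATAAA. Over all 32851 windows in the table the shares were 32.7%, 1.47%, 2.44% and 12.4% in the same order. These are matches of letters and were not measured as binding.

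The remaining members of the ILK complex were each higher on average in cKO, and none passed the test. Ilk encodes the pseudokinase at the centre of the complex. Its level was 141, 178, 178 and 205 CPM in cKO, against 142, 132 and 145 CPM in WT mice (log2 fold change 0.33, SE 0.13, adjusted p = 0.23). All but cKO replicate 1 were above the WT libraries. Parvb, a parvin that links the complex to actin, was at 21.4, 29.0, 29.3 and 27.9 CPM in cKO, against 15.3, 21.0 and 22.7 CPM in WT mice (0.45, SE 0.17, adjusted p = 0.21). Here too cKO replicate 1 lay among the WT libraries. Parvg, the parvin of blood cells, was the most abundant of the complex, at 542, 623, 579.6 and 763 CPM in cKO, against 527, 528 and 563 CPM in WT mice (0.22, SE 0.13, adjusted p = 0.42). Lims1, which encodes PINCH1, the direct partner of Rsu1, was at 158, 146, 188 and 138 CPM in cKO, against 136, 142 and 126 CPM in WT mice (0.23, SE 0.12, adjusted p = 0.38), with groups that overlapped. Parva, the parvin of most other tissues, had 6, 9, 2 and 9 counts in cKO, against 2, 0 and 10 counts in WT, too few to be tested. Per kilobase of transcript the level of Rsu1 was 69.3 ± 3.28 CPM per kb in cKO (SD, n = 4) and 41.2 ± 4.93 CPM per kb in WT (SD, n = 3). That of Ilk was 97.7 ± 14.6 and that of Lims1 36.4 ± 5.00 CPM per kb in cKO, with 77.8 ± 3.74 for Ilk and 31.1 ± 1.90 CPM per kb for Lims1 in WT. Rsu1 lay between its partners in each group, closer to Lims1 in WT. Ilk overlaps Taf10 and Rrp8 in the RefSeq table, and without a stated strand setting reads of overlapping genes cannot be told apart.

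**Figure D2:**
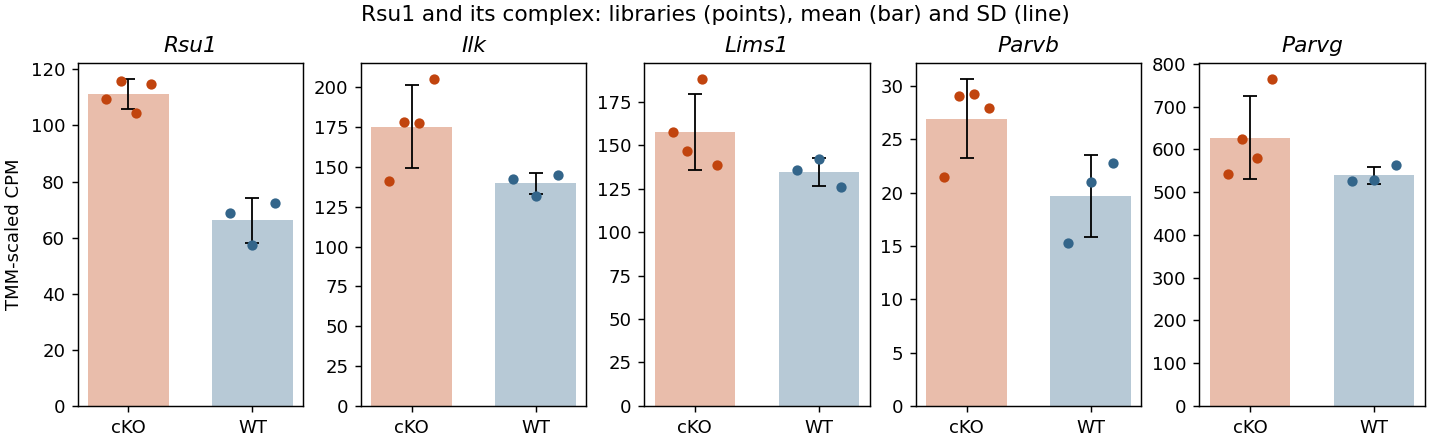
TMM-scaled CPM (vertical axis, linear from 0, a scale of its own in each panel) of Rsu1 and the 4 other tested genes of the ILK complex in cKO (left) and WT (right), with libraries as points, the mean as a bar and the SD as a line. The cKO and WT libraries are apart for Rsu1 and overlap for Ilk, Lims1, Parvb and Parvg.

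The rise of Rsu1 kept its direction in all 18 alternative settings and passed in 13 of them. The call was lost without any one of 5 libraries: the adjusted p was 0.097 when cKO replicate 2 and 0.099 when cKO replicate 3 was left out, and leaving out a WT library gave 0.061 for replicate 1, 0.21 for replicate 2 and 0.096 for replicate 3. In these 5 fits 0.0331% to 0.0823% of all genes passed, against 0.359% with no library left out. The call of Rsu1 held when cKO replicate 1 (adjusted p = 0.019) or cKO replicate 4 (adjusted p = 0.041) was left out. Of all genes, 1.19% passed without cKO replicate 1 and 0.371% without cKO replicate 4. With a library left out, the log2 fold change ranged from 0.65 to 0.82. In mean log2 CPM, Rsu1 was higher in cKO by 0.71 among mice of the lower run of mouse numbers (2 cKO, 1 WT) and by 0.77 among those of the higher run (2 cKO, 2 WT). The difference was 0.84 among the libraries with Xist RNA, which is made from the inactive X chromosome (2 cKO, 2 WT), and 0.64 among those without (2 cKO, 1 WT).

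**Figure D3:**
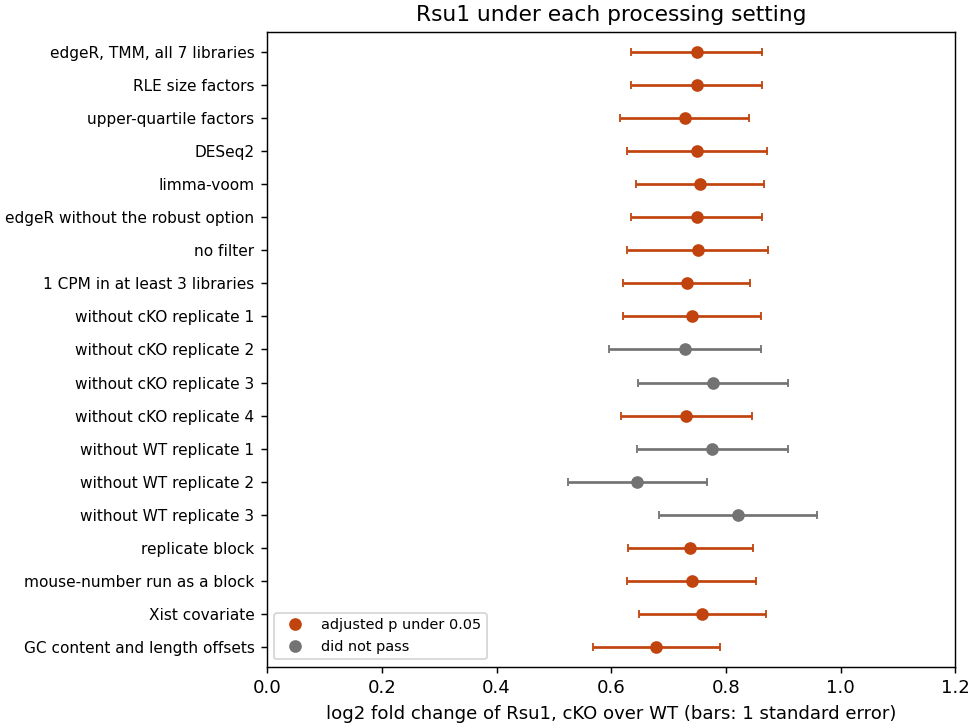
Log2 fold change of Rsu1, cKO over WT, on the horizontal axis with bars of 1 standard error, for the fit on all 7 libraries (top) and each alternative setting. Each point lies between 0.65 and 0.82, and the 5 points that did not pass an adjusted p of 0.05 are fits that leave out 1 library.

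Among the receptors 0 of 11 passed, and a single beta chain, Itgb5, was far more abundant than the rest. Itgb5, whose chain pairs with alpha v to bind vitronectin, stood at 2656, 3472, 3150.0 and 3651 CPM in cKO, against 3144, 3558 and 3450.5 CPM in WT mice (log2 fold change −0.07, SE 0.13, adjusted p = 0.85). The groups overlapped, with cKO replicate 1 the lowest and cKO replicate 4 the highest of the 7 libraries. Per kilobase its level was 985 ± 133 CPM per kb in cKO and 1031 ± 65.5 CPM per kb in WT (SD, n = 4 and n = 3). Itgb1, the beta chain shared by most matrix receptors, came next at 145 ± 7.18 CPM per kb in cKO and 125 ± 7.77 CPM per kb in WT. It was followed by Itga6, which binds laminin, at 81.3 ± 18.4 CPM per kb in cKO and 82.7 ± 14.2 CPM per kb in WT. Next were Itga9 at 34.8 ± 3.02 and Itgb3 at 28.0 ± 5.08 CPM per kb in cKO. In WT Itga9 was at 30.3 ± 1.40 and Itgb3 at 35.4 ± 4.93 CPM per kb, the reverse order. The difference between these genes was not tested. Itgav, the partner of both Itgb3 and Itgb5, was at 19.96 ± 2.65 CPM per kb in cKO and 19.5 ± 1.85 CPM per kb in WT. Itga5, the fibronectin receptor chain, was at 8.02 ± 1.33 CPM per kb in cKO and 8.86 ± 0.374 CPM per kb in WT. The other 4 receptors, Itgal, Itgb7, Itga4 and Cd44, were below 3 CPM per kb in both groups.

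Itgb1 and Itga9, which together form a receptor for tenascin and VCAM1, were each above every WT library in every cKO library, by small amounts. Itgb1 was at 551, 571, 574 and 515 CPM in cKO, against 505, 482 and 446 CPM in WT mice (log2 fold change 0.21, SE 0.10, adjusted p = 0.32). Itga9 was at 249, 226, 272 and 230.0 CPM in cKO, against 220.3, 216 and 201 CPM in WT mice (0.20, SE 0.11, adjusted p = 0.37). The gap between the groups was narrow for both genes, and neither passed. Itgb3, which with alpha v binds vitronectin and other ligands, had the lowest fold change of all members. It was at 124, 173, 157 and 193 CPM in cKO, against 174, 229 and 211 CPM in WT mice (−0.34, SE 0.15, unadjusted p = 0.048 from edgeR, adjusted p = 0.30). The groups overlapped, with cKO replicate 4 above WT replicate 1. Itga2b, the platelet partner of Itgb3 and not a member, had 4, 5, 8 and 3 counts in cKO and 14, 13 and 11 in WT. The summed level of the 6 platelet markers, Itga2b among them, overlapped between the groups. It was 28.7 to 58.5 CPM in cKO and 42.5 to 56.6 CPM in WT, and Gp9 made up most of it. Of the 6 markers 3 were tested, and 0 of these passed, 0 had a log2 fold change above 0 and 3 below 0. Treml1 had the lowest, with groups that overlapped (−1.02, SE 0.42, edgeR adjusted p = 0.25). The part of platelets in the value of Itgb3 was not tested.

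The alpha chains Itgav, Itga6 and Itga5 overlapped between the groups. Itgav ranged from 124 to 166 CPM in cKO and from 123 to 149 CPM in WT mice (adjusted p = 0.92). Itga6 ranged from 271 to 446 CPM in cKO and from 295 to 417 CPM in WT mice (adjusted p = 0.97). Itga5 ranged from 28.3 to 42.6 CPM in cKO and from 37.1 to 40.3 CPM in WT mice (adjusted p = 0.66).

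The scarce receptors Itgal, Itga4 and Cd44, which are known from circulating leukocytes, were highest in 1 cKO library. Itgal, the alpha chain of LFA-1, was at 19.4, 9.78, 10.4 and 8.18 CPM in cKO, against 6.10, 9.17 and 9.40 CPM in WT mice (log2 fold change 0.53, SE 0.28, adjusted p = 0.37). Itga4, which binds VCAM1, was at 6.23, 2.03, 3.53 and 2.18 CPM in cKO, against 3.98, 2.41 and 1.67 CPM in WT mice (0.38, SE 0.41, adjusted p = 0.70). Cd44, a hyaluronan receptor, was at 3.57, 1.25, 2.29 and 0.919 CPM in cKO, against 0.585, 1.65 and 1.53 CPM in WT mice (0.66, SE 0.48, adjusted p = 0.54). In each of the 3 genes cKO replicate 1 was the highest of all 7 libraries. Without it the log2 fold change was 0.19 for Itgal, −0.07 for Itga4 and 0.21 for Cd44. The same library had the highest summed level of the 8 markers of border-associated macrophages, 132 CPM, of which Mrc1 made up 71.5 CPM. That sum was 68.7 to 116 CPM in the other cKO libraries and 73.4 to 112 CPM in WT. It was the highest library in 4 of these 8 markers (Mrc1, Cd163, Lyve1 and F13a1) and not in the other 4. Its summed levels of the monocyte and neutrophil markers, 9.38 CPM, and of the lymphocyte markers, 0.104 CPM, were not the highest of the 7, and the sort kept CD45low cells. The part of these cells in the values of the 3 receptors was not tested. Itga4 overlaps Cerkl in the RefSeq table. The beta chain Itgb7 ranged from 1.90 to 2.27 CPM in cKO and from 1.56 to 2.06 CPM in WT mice (adjusted p = 0.58).

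**Figure D4:**
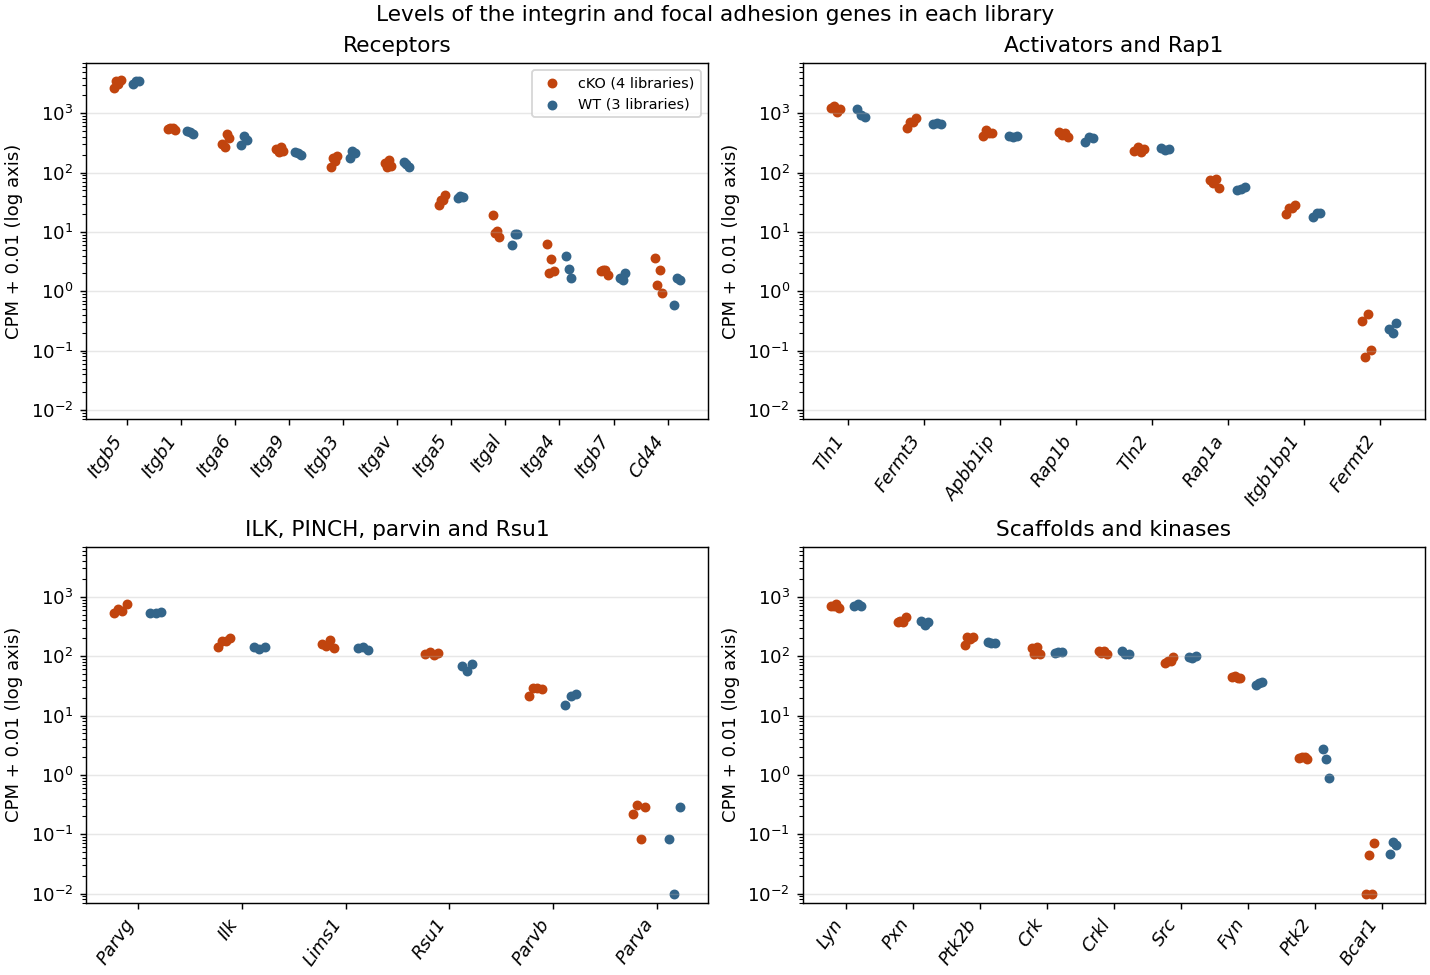
Level of each of the 34 members in every library, as CPM plus 0.01 on a log axis, in 4 panels by role, with cKO libraries left of WT libraries for each gene and genes ordered by their mean in WT. Itgb5 is at the top, between 2656 and 3651 CPM, and Fermt2, Parva and Bcar1 lie below 1 CPM in every library.

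Of the genes that regulate integrin activation, 0 of the 7 tested passed. Tln1, the talin of most cells, was at 1212, 1339.7, 1044 and 1188 CPM in cKO, against 1171, 929.6 and 859.8 CPM in WT mice (log2 fold change 0.28, SE 0.13, adjusted p = 0.32). WT replicate 1 reached into the cKO range. Tln2, the second talin, was at 242 ± 18.6 CPM in cKO mice and 252 ± 12.5 CPM in WT mice (−0.06, SE 0.10, adjusted p = 0.83). Fermt3, the kindlin of haematopoietic cells, was at 558, 726, 701 and 821 CPM in cKO, against 670.1, 675 and 663 CPM in WT mice (0.07, SE 0.13, adjusted p = 0.85). Its WT libraries were nearly equal, while the cKO libraries lay on both sides of them. Fermt2, the kindlin of most other tissues, had 9, 2, 11 and 3 counts in cKO and 6, 6 and 10 in WT, and was not tested. Fermt3 overlaps Trpt1 in the RefSeq table, with the same uncertainty as for Ilk.

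Both Rap1 genes were higher in cKO at an unadjusted p under 0.05, and neither passed the adjusted threshold. Rap1b was at 482, 434, 470.4 and 399 CPM in cKO, against 327, 395 and 381 CPM in WT mice (log2 fold change 0.28, SE 0.11, edgeR unadjusted p = 0.031, adjusted p = 0.24). Every cKO library was above every WT library, cKO replicate 4 by little. Rap1a was at 76.1, 67.1, 77.1 and 54.9 CPM in cKO, against 51.6, 53.6 and 57.3 CPM in WT mice (0.34, SE 0.13, unadjusted p = 0.024, adjusted p = 0.22). In this gene cKO replicate 4 lay within the WT range. Per kilobase Rap1b, at 164 ± 13.9 CPM per kb in cKO and 135 ± 13.2 CPM per kb in WT, was the more abundant of the pair, with Rap1a at 28.6 ± 4.28 CPM per kb in cKO and 22.5 ± 1.21 CPM per kb in WT. Rap1a has a pseudogene copy, Rap1a-ps2, so the assignment of its reads is uncertain.

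The adaptors next to Rap1 and the beta tail were also higher on average in cKO without passing. Apbb1ip encodes RIAM, which links Rap1 to talin. It was at 418, 525, 466 and 469 CPM in cKO, against 413, 402 and 419.9 CPM in WT mice (log2 fold change 0.19, SE 0.11, adjusted p = 0.40), and only cKO replicate 1 was within the WT range. Itgb1bp1 encodes ICAP-1, which binds the beta 1 tail and holds the receptor inactive. It was at 20.3, 25.5, 25.7 and 28.7 CPM in cKO, against 18.1, 20.5 and 21.0 CPM in WT mice (0.34, SE 0.14, unadjusted p = 0.036 from edgeR, adjusted p = 0.26). Again cKO replicate 1 was the one that overlapped WT. Itgb1bp1 overlaps Asap2 and Cpsf3 in the RefSeq table.

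Among scaffolds and kinases 0 of the 8 tested passed, and Fyn came closest. Fyn, a Src-family kinase, was at 43.8, 47.0, 42.4 and 42.9 CPM in cKO, against 33.1, 35.6 and 36.8 CPM in WT. Both groups were tight and did not overlap (log2 fold change 0.33, SE 0.10, edgeR unadjusted p = 0.0092, adjusted p = 0.16). Src was at 75.4, 82.4, 81.9 and 98.0 CPM in cKO, against 98.2, 91.5 and 102 CPM in WT mice (−0.20, SE 0.11, adjusted p = 0.41). Here cKO replicate 4 was the only cKO library within the WT range. Lyn, the most abundant of the 3 kinases, was at 698 ± 44.9 CPM in cKO mice and 713 ± 32.0 CPM in WT mice (−0.03, SE 0.10, adjusted p = 0.92). Per kilobase Lyn was at 202 ± 12.96, Src at 21.6 ± 2.46 and Fyn at 12.4 ± 0.582 CPM per kb in cKO. The same order held in WT, with 206 ± 9.24, 24.9 ± 1.35 and 9.86 ± 0.522 CPM per kb.

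Of the focal adhesion kinases, Ptk2b, which encodes Pyk2, was far more abundant per kilobase than Ptk2. Ptk2b was at 157, 211, 196 and 214 CPM in cKO, against 172, 167 and 169 CPM in WT mice (log2 fold change 0.20, SE 0.12, adjusted p = 0.45), and cKO replicate 1 was below the WT libraries while the others were above. Ptk2, which encodes FAK, was at 1.94, 1.96, 1.97 and 1.84 CPM in cKO, against 2.67, 1.81 and 0.865 CPM in WT mice (0.13, SE 0.34, adjusted p = 0.90). Per kilobase the level was 48.2 ± 6.48 CPM per kb in cKO and 42.0 ± 0.621 CPM per kb in WT for Ptk2b, and 0.412 ± 0.0128 in cKO and 0.381 ± 0.193 CPM per kb in WT for Ptk2. Pxn, which encodes the scaffold paxillin, was at 397 ± 42.6 CPM in cKO mice and 368 ± 34.7 CPM in WT mice (0.11, SE 0.12, adjusted p = 0.70). The adaptor Crk was at 125 ± 18.7 CPM in cKO mice and 115 ± 1.24 CPM in WT mice (adjusted p = 0.70), and its relative Crkl at 117 ± 6.16 CPM in cKO mice and 112 ± 8.36 CPM in WT mice (adjusted p = 0.84). Bcar1, which encodes their docking partner p130Cas, had 0, 1, 0 and 2 counts in cKO and 1, 2 and 2 in WT, and was not tested.

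Differences between cKO libraries varied with the base composition of the transcripts. The pair of libraries farthest apart in this respect was chosen after the values were seen. Across all genes tested, the difference in log2 CPM between cKO replicate 4 and cKO replicate 1 had a Spearman correlation of 0.55 with GC content (11901 genes). Across the 31 members it was 0.62, and these genes share the 2 libraries and are not independent. Of the 15 members with a GC content above 50%, 11 were higher in cKO replicate 4, and of the 16 others 4 were. Itgb3 was higher in cKO replicate 4 by 0.64, Itga5 by 0.59 and Fermt3 by 0.56 on the log2 scale, while the difference was −0.47 for Rap1a and −0.37 for Crk. Itgal, with a GC content of 53.2%, went against this trend at −1.24, as did Itgb1bp1, with a GC content of 46.9%, at 0.50. For Rsu1, with a GC content of 45.0%, the difference was 0.07. Between WT replicates 3 and 1 the correlation across the members was 0.13.

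**Figure D5:**
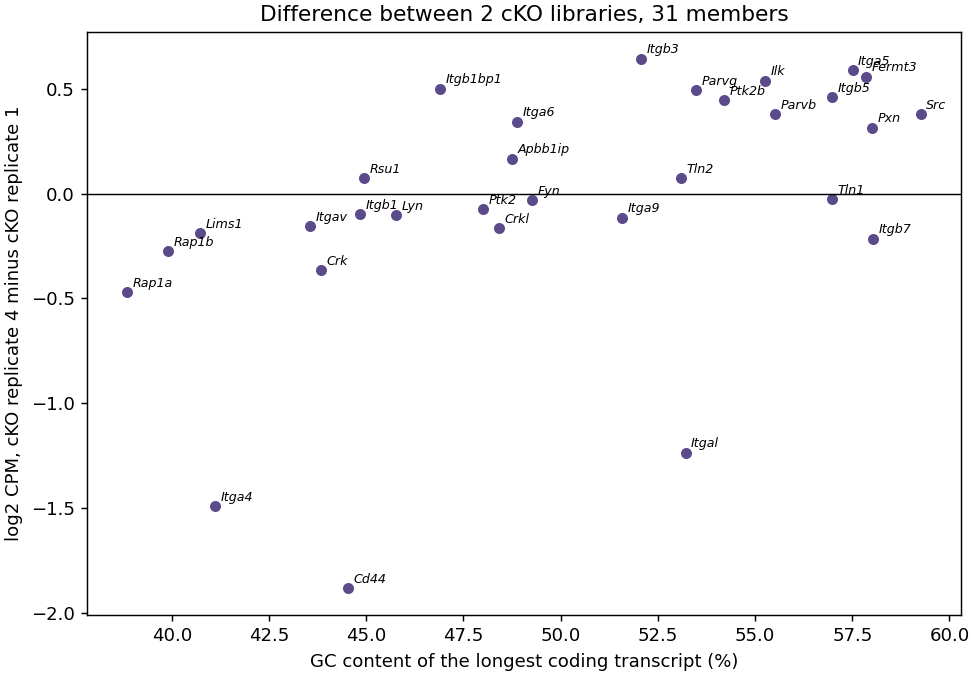
Difference in log2 CPM between cKO replicate 4 and cKO replicate 1 (vertical axis) against the GC content of the longest coding transcript (horizontal axis, percent), 1 point for each of the 31 members tested. The GC-rich members Itgb3 and Fermt3 lie above 0 and Rap1a and Rap1b below, while Itgal (GC content 53.2%), Itga4 and Cd44 are the lowest.

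More members passed in some of the alternative fits, in which more of all genes passed too, among them the fits with offsets and with Xist. With each library's trend over GC content and over length taken as an offset, 5 members were higher and 0 lower: Rsu1 (adjusted p = 0.011), Tln1 (log2 fold change 0.39, adjusted p = 0.030), Fyn (0.34, adjusted p = 0.031), Ilk (0.36, adjusted p = 0.041) and Rap1a (0.36, adjusted p = 0.048), while 4.36% of all genes passed as higher and 1.03% as lower. With Xist as a covariate 3 were higher and 0 lower: Rsu1 (adjusted p = 0.0024), Parvb (0.54, adjusted p = 0.034) and Fyn (0.35, adjusted p = 0.040), while 6.21% of all genes passed as higher and 2.59% as lower. Over the 18 alternatives the adjusted p of Fyn ranged from 0.031 to 0.44. In mean log2 CPM, 14 of the 31 members were higher and 3 lower in cKO in both runs of mouse numbers and both with and without Xist, which held for 26% and 27.5% of all genes. The lower run and the libraries without Xist each hold 1 WT library, so those differences have no spread in WT. The 3 lower ones were Itgb3, Itga5 and Src. Fyn was higher in cKO by 0.45 in the lower and 0.24 in the higher run of mouse numbers, and by 0.31 with and 0.38 without Xist. Ilk was higher by 0.16 in the lower and 0.46 in the higher run, and by 0.47 with and 0.15 without Xist. The Rap1 genes leaned the other way, with Rap1b higher by 0.48 in the lower and 0.16 in the higher run, and by 0.10 with and 0.54 without Xist. The difference of Tln1 was 0.50 with Xist and −0.06 without.

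The rest of the pathway was read from a list of 146 integrin and integrin-like genes, ligands, adaptors and GTPases. Of these, 145 were found and 112 were tested. In this list 0 rose and 0 fell by edgeR at the adjusted threshold, 18 were higher and 3 lower at an unadjusted p under 0.05, against 9.65% and 6.87% of all genes. By DESeq2 5 were higher and 1 lower, while it called 3.12% of all genes as higher and 1.37% as lower. The median log2 fold change was 0.08. The 6 with the smallest p on the higher side held 4 small GTPases that organise actin (Cdc42, Rhoa, Rac1 and Rac2). Cdc42 was at 928, 962, 948 and 841 CPM in cKO, against 617, 621 and 669 CPM in WT mice (0.53, SE 0.10, adjusted p = 0.058). Rhoa was at 501, 623, 579 and 609.6 CPM in cKO, against 396, 407 and 414 CPM in WT mice (0.51, SE 0.11, adjusted p = 0.075). Rac1 was at 514, 577, 536 and 517 CPM in cKO, against 379.9, 413 and 414 CPM in WT mice (0.41, SE 0.10, adjusted p = 0.10). In these 3 genes the groups were well apart. With a library left out, 3 genes of the list were higher without cKO replicate 1 (Rhoa, Cdc42 and Zyx; 0.933% of all genes), 1 without cKO replicate 4 (Cdc42; 0.32% of all genes) and 0 without any other.

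The next on the higher side were Zyx, Rap1gds1 and Rac2, without overlap between the groups. Of the 112 tested genes of the list, 17 had every cKO library above every WT library and 2 every one below. Over all genes these shares were 8.86% and 7.2%. Zyx, which encodes zyxin of mature adhesions, averaged 168 ± 25.1 CPM in cKO mice and 120.3 ± 8.89 CPM in WT mice (log2 fold change 0.48, SE 0.13, adjusted p = 0.13). Rap1gds1, a chaperone-like partner of small GTPases, averaged 357 ± 11.4 CPM in cKO mice and 281 ± 15.5 CPM in WT mice (0.34, SE 0.10, adjusted p = 0.13). Rac2, the Rac of blood cells, averaged 216 ± 32.4 CPM in cKO mice and 161 ± 15.9 CPM in WT mice (0.42, SE 0.13, adjusted p = 0.16).

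On the lower side the smallest p belonged to Trip6, a LIM protein related to zyxin. It was at 19.0, 13.6, 13.8 and 11.9 CPM in cKO, against 37.5, 24.0 and 17.6 CPM in WT mice (log2 fold change −0.85, SE 0.24, adjusted p = 0.13), and WT replicate 3 was within the cKO range. Icam1, a ligand of LFA-1 and Mac-1, averaged 216 ± 38.7 CPM in cKO mice and 274 ± 26.3 CPM in WT mice (−0.35, SE 0.14, adjusted p = 0.25). Thbs1, a matrix ligand, averaged 9.15 ± 0.970 CPM in cKO mice and 11.8 ± 1.64 CPM in WT mice (−0.37, SE 0.16, adjusted p = 0.26). Its cKO libraries were all below its WT libraries. Cass4, a relative of p130Cas, averaged 63.3 ± 8.85 CPM in cKO mice and 75.7 ± 2.84 CPM in WT mice (adjusted p = 0.32). Lrrc33, which presents latent TGF-beta to alpha v integrins, averaged 249.7 ± 50.1 CPM in cKO mice and 308 ± 34.5 CPM in WT mice (adjusted p = 0.34). Jam3, a junction protein, averaged 17.7 ± 4.71 CPM in cKO mice and 22.7 ± 2.93 CPM in WT mice (adjusted p = 0.37).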

How the data were processed

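The authors deposited 1 table of whole-number counts per gene symbol for 7 libraries, not normalized; DRAGEN and the GRCm39 build were used per the submitters' processing notes, while the sources used here do not state the annotation, the counting rule or the use of strand. Genes were kept with filterByExpr of edgeR 4.0.16 (limma 3.58.1, R 4.3.3; least count 10, least total count 15), scaled with TMM and compared by the robust quasi-likelihood F test with no covariate, adjusted by Benjamini-Hochberg over 11991 genes at 0.05; the procedure was tested on simulated data. The SE is the log2 fold change over the square root of F (prior count 2 for log2 CPM). Libraries within a group differed beyond sampling noise (chi-square between 18.0 and 93.1 times its degrees of freedom), so each counted as 1 replicate. The p-values weigh the difference between the groups against the spread between libraries. As each mouse gave 1 library, differences between mice and between library preparations cannot be told apart in it. Length and GC content came from the longest coding transcript of GENCODE M21, with values for 99.2% of the genes tested.

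The members and lists were chosen with earlier results of these data known. Named are every member, the other pathway genes that passed and up to 6 per direction with the smallest p, and genes of the label check. Itga2b, Gp9, Treml1, Mrc1, Cd163, Lyve1, F13a1 and Pecam1, and the genes of the closing observations, were named after their values were seen. DESeq2 1.42.0 and limma-voom were among the alternatives.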

Additional observations from a re-analysis of the deposited data

Results flagged for a closer look

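Among the 4 cKO libraries, Itgb7 in cKO replicate 4 stood apart at 1.90 CPM, against 2.22 to 2.27 CPM in the other 3. This was 1 of the 34 members looked at in this way, and chance alone marks about 1 in 20 such groups. The WT libraries ranged from 1.56 to 2.06 CPM. In counts, Itgb7 had 64, 67, 62 and 62 in cKO replicates 1 to 4, so replicates 3 and 4 were equal before scaling.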

How the results depend on the processing

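Of 558 values of single members under the 18 alternatives, 528 kept their direction and their side of the threshold. The count of members higher in cKO, 1 as deposited, was 2 with the replicate number as a block (Rsu1 and Rap1a), 3 with the Xist covariate and 5 with GC content and length offsets, and from 0 to 1 with a library left out. The count lower was 0, and 1 (Itgb3) with the replicate block. Of the other pathway genes 0 were higher, and 5 by DESeq2, 1 by limma-voom, 1 without a filter, 3 with the replicate block, 2 with the mouse-number run as a block, 9 with the Xist covariate, 11 with the offsets and from 0 to 3 with a library left out; 0 were lower, and 1 by DESeq2, 2 with the block, 1 with the run and 1 with Xist. Of all genes, 3.12% were higher by DESeq2, 0.342% by limma-voom, 0.439% without a filter, 1.44% with the replicate block and 1.14% with the run. The share higher was 6.21% with Xist, 4.36% with the offsets and 0.0166% to 0.933% with a library left out. The share lower was 1.37% by DESeq2, 0.959% with the replicate block, 0.275% with the run and 2.59% with Xist. The causes were not tested.

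The sign turned in 8 members, none of which passed, and 23 of the 31 kept theirs throughout. The log2 fold change of Itga6 was 0.042 with the run, that of Itgav −0.051 with Xist, and that of Itgb5 0.00014 with Xist and 0.018 with the offsets. Tln2 was at 0.016 with the offsets, and with the replicate block Fermt3 was at −0.026 and Lyn at 0.0047. With a library left out, the log2 fold change ranged from −0.072 to 0.77 for Itga4, −0.16 to 0.094 for Itga6, −0.052 to 0.10 for Itgav, −0.13 to 0.0019 for Itgb5, −0.019 to 0.15 for Fermt3, −0.21 to 0.53 for Ptk2 and −0.070 to 0.0038 for Lyn.

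The replicate numbers share no stated litter or day: deviations of same-numbered mice correlated at 0.39, 0.07 and −0.17 for replicates 1, 2 and 3, so the block is given here alone, and cKO replicate 4 has no partner in it. Fermt2, Parva and Bcar1 had too few counts to be compared at this depth.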

Other observations

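Of 17 integrin and integrin-like genes outside the set of members, 6 had enough counts to be tested by edgeR. Of these 6, 0 passed, 0 also at an unadjusted p under 0.05 and 0 by DESeq2. The log2 fold change was above 0 for 2 of them and below 0 for 4, with a median of −0.20. The 2 abundant ones, with the standard error beside each, were Itgam, the CD11b chain used for the sort, at 400 ± 41.7 CPM per kb in cKO (SD, n = 4) and 374 ± 81.9 CPM per kb in WT (SD, n = 3; log2 fold change 0.09, SE 0.15), and its partner Itgb2, at 289 ± 31.7 CPM per kb in cKO and 275 ± 6.46 CPM per kb in WT (0.07, SE 0.11). The 3 with the lowest log2 fold changes were scarce: Itgad (−0.82, SE 0.69), Itgae (−0.49, SE 0.32) and Itga10 (−0.39, SE 0.29). Itgax was at −0.02 (SE 0.19).

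The tetraspanin Cd81, which associates with integrins in the membrane, was at 1950.4 ± 312 CPM in cKO mice and 1949 ± 188 CPM in WT mice (log2 fold change 0.0010, SE 0.14). Tgfb1, whose latent form is a ligand of alpha v integrins, was at 607 ± 88.6 CPM in cKO mice and 595 ± 32.3 CPM in WT mice (0.03, SE 0.13). Vtn, which encodes the ligand vitronectin, had 0, 0, 0 and 2 counts in cKO and 5, 5 and 1 in WT. Vinculin, Vcl, which joins talin to actin, was at 25.3 ± 2.66 CPM in cKO mice and 27.8 ± 2.63 CPM in WT mice (−0.14, SE 0.13, adjusted p = 0.65).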
